A study of Mus musculus with 6 samples.

Results

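The blood-clotting proteins examined here are the liver-made procoagulant factors and the contact system, encoded by F2, F5, F7, F9, F10, F11, F12, F13b, Klkb1 and Kng1. These 10 genes were chosen by name, and each symbol matched 1 of the 54532 gene identifiers of the tables. Liver RNA of mice with an Arid2 liver-specific knockout (LKO) was compared with liver RNA of wild-type (WT) mice in 6 libraries, 3 LKO and 3 WT, all from animals without treatment. ARID2 is a subunit of the PBAF chromatin remodelling complex, and the title of the series places the comparison in work on hepatic steatosis and the kinase JAK2. The labels do not name the promoter that drives the deletion, the age of the mice, or whether each library came from a separate animal, so the p-values measure the spread between these libraries.

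Clotting runs as a chain of protease precursors that activate each other. Factor VII starts it together with tissue factor, factors IX and X carry it on, and prothrombin (F2) becomes thrombin, which turns fibrinogen into fibrin. Factor V is the cofactor of the step that makes thrombin, and the factor XIII B chain carries the enzyme that cross-links fibrin. In the contact system, factor XII and plasma kallikrein (Klkb1) activate each other on negatively charged surfaces, with high molecular weight kininogen (Kng1) as their cofactor, and factor XI links this system to factor IX. Hepatocytes are the main source of these proteins in plasma.

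Expression was given as FPKM (reads relative to exon length and to a total per library). From the steps of these values, between 13947776 and 18159274 reads per library were recovered. The totals implied by the steps followed median-of-ratios size factors and not the recovered reads. They were 12704105 in LKO replicate 1 (13947776 reads recovered) and 19279615 in WT replicate 1 (16889731 reads recovered). The 10 genes were well covered, with between 225 reads (F13b in LKO replicate 1) and 59802 reads (Kng1 in WT replicate 1) per gene and library. The knocked-out gene, Arid2, overlapped between the genotypes, with 2.55, 1.33 and 2.04 FPKM in LKO livers, against 2.65, 1.74 and 1.79 FPKM in WT livers (limma adjusted p = 0.974). Values of a genotype are those of replicates 1, 2 and 3 throughout. These are sums over the whole gene, so a deleted exon could not be viewed and the genotypes are those of the labels. The 2 libraries numbered 1 stood apart from the others, with 2368 (LKO) and 2003 (WT) genes at 1 to 5 reads, against 3913 to 4263 in the remaining libraries. The mitochondrial genome took 4.76% to 27.6% of reads in LKO libraries and 10.2% to 20.7% in WT libraries. Markers of hepatocytes summed to 61432 to 86512 FPKM in LKO libraries and to 64874 to 75244 FPKM in WT libraries. The 10 endothelial markers summed to 26.6 to 72.9 FPKM in LKO libraries and to 42.9 to 63.2 FPKM in WT libraries. The platelet markers summed to 1.72 to 6.14 FPKM in LKO libraries and to 2.06 to 3.46 FPKM in WT libraries, with Gp1bb at 0 in all 6. Of the marker genes tested, 10 of 10 endothelial and 5 of 5 erythroid genes had log2 differences, LKO minus WT, below 0 (medians -0.24 and -0.78), and 3 of 3 neutrophil genes had differences above 0 (median 1.18), with 0 called by limma in each list. The erythroid markers summed to 91.2 to 149 FPKM in LKO libraries and to 139 to 330 FPKM in WT libraries. Alas2, the heme synthesis enzyme of red cell precursors, averaged 3.69 ± 1.96 FPKM in LKO livers and 27.7 ± 15.6 FPKM in WT livers (SD, n = 3 each; limma adjusted p = 0.183) and did not overlap. The neutrophil markers summed to 2.83 to 12.7 FPKM in LKO libraries and to 0.560 to 3.23 FPKM in WT libraries, with Ly6g and Ltf at 0 in all 6 and S100a8 higher in every LKO library. The part of other cell types in the results was not tested. In bulk tissue, fewer cells of a type and less RNA per cell cannot be told apart.

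None of the 10 genes passed the test between the genotypes, and the plasma kallikrein gene Klkb1 was the one whose libraries did not overlap. Klkb1 averaged 32.9 ± 3.68 FPKM in LKO livers and 69.6 ± 21.4 FPKM in WT livers (SD, n = 3 each). Prothrombin, factor V, factor IX and factor XII transcripts had ratios of means, LKO over WT, between 1.06 and 1.201, with overlapping libraries. The test was limma-trend on log2(FPKM + 1) over 11672 genes, with Benjamini-Hochberg adjustment over all of them. It called 0 of the 10 genes, and 0.0428% of all genes tested, at an adjusted p under 0.05; by direction, 0 of the 10 were called higher (0.00857% of all genes) and 0 lower (0.0343%). At an unadjusted p under 0.05 it picked 1 of the 10, Klkb1, where 9.22% of all genes were picked. Limma's voom on the recovered reads also called 0 of the 10. Every LKO library lay below every WT library for 1 of the 10 genes, and for 7.42% of all genes tested. Every LKO library lay above every WT library for 0 of the 10, and for 8% of all genes, so groups were apart for 1 of the 10 and for 15.4% of all genes. The median log2 difference (LKO minus WT) of the 10 genes was -0.12, with 5 above 0 and 5 below, beside a median of 0.03 over all genes tested. With 3 libraries against 3, an exact permutation test of a single gene cannot go below p = 0.1.

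**Figure D1:**
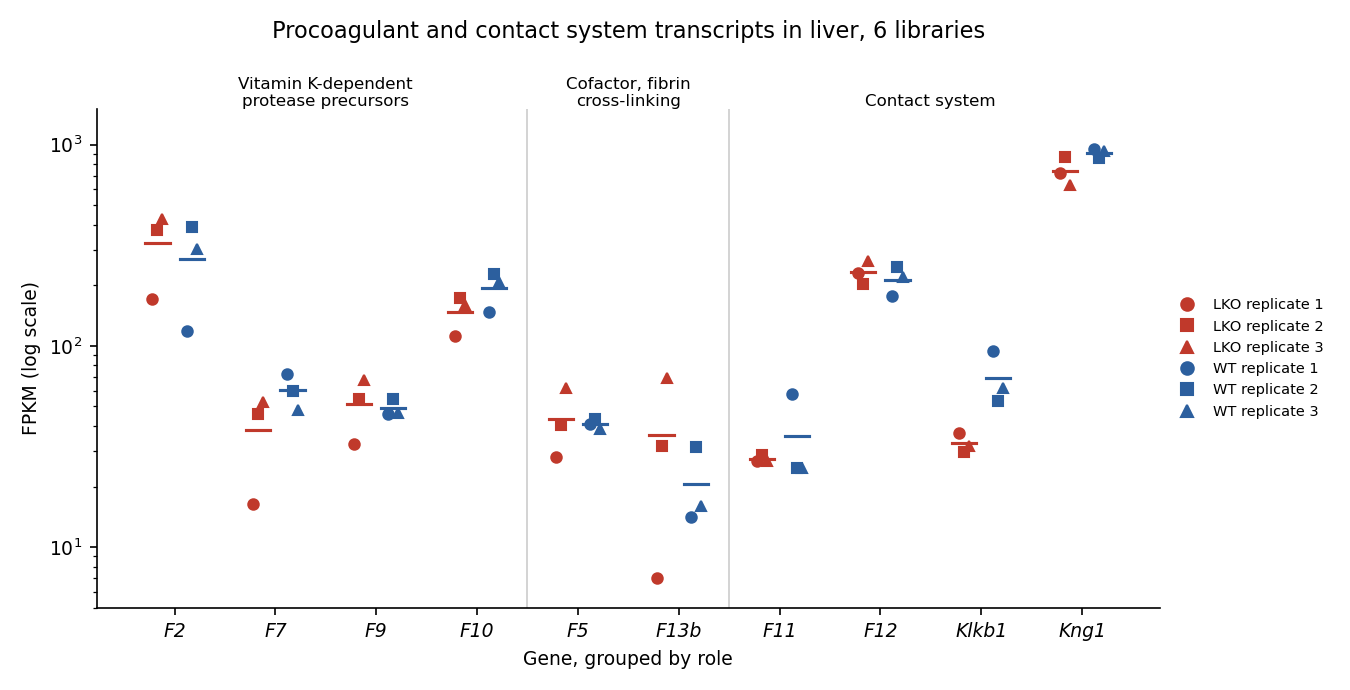
FPKM (log axis) of the 10 genes in each library, LKO to the left of WT within each gene, with a horizontal line at each group's mean and 1 marker shape per replicate number. Kng1 lies highest in all libraries, and Klkb1 is the gene in which the 3 LKO points (29.8 to 37.0 FPKM) lie below the 3 WT points (53.4 to 93.8 FPKM).

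The levels, per exon length, fell into 3 steps. Kng1 had the highest mean over the 6 libraries, 825 FPKM, and its lowest library (628 FPKM) lay above the highest library of F2 (427 FPKM), the next gene. F2, F12 and F10 followed with means of 297, 223 and 171 FPKM. Their ranges overlapped, although F12 lay above F10 in 6 of 6 libraries. The lowest F10 value (112 FPKM) lay above the highest Klkb1 value (93.8 FPKM). Below that gap Klkb1, F9, F7, F5, F11 and F13b had means between 28.3 and 51.2 FPKM. The ranges of neighbours in that order overlapped, so their sequence is not fixed by these libraries.

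Of the vitamin K-dependent genes among the 10 (F2, F7, F9 and F10), F2 had the highest mean over the 6 libraries, although F10 lay above it in WT replicate 1. F2 (ENSMUSG00000027249, chromosome 2, 91625320 to 91636414, minus strand, mm10), which encodes prothrombin, measured 170, 375 and 427 FPKM in LKO replicates 1, 2 and 3, against 118, 389 and 302 FPKM in WT replicates 1, 2 and 3. The 2 low values were both in the libraries numbered 1, and the genotypes overlapped. Its log2 difference, LKO minus WT, was fitted as 0.32 ± 0.56 (SE; limma, 95% interval -0.99 to 1.64, adjusted p = 0.919). It was -0.19 without WT replicate 1.

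F7 (ENSMUSG00000031443, chromosome 8, 13026034 to 13035809, plus strand), the gene of factor VII, was at 16.4, 45.7 and 52.6 FPKM in LKO livers, against 72.5, 59.5 and 48.3 FPKM in WT livers. LKO replicate 1 held the lowest value and LKO replicate 3 reached above the lowest WT library. The log2 difference of -0.78 ± 0.47 (SE; limma, 95% interval -1.87 to 0.31, adjusted p = 0.692) was -0.27 without LKO replicate 1 and -0.13 without both libraries numbered 1. F10 (ENSMUSG00000031444, chromosome 8, 13037308 to 13056676, plus strand), which encodes factor X, starts 1499 bp beyond the end of F7. It was at 112, 173 and 160 FPKM in LKO livers, against 148, 228 and 208 FPKM in WT livers. Both genotypes had their lowest F10 value in the library numbered 1, and the ranges overlapped (log2 difference -0.39 ± 0.34 SE, limma adjusted p = 0.803). That difference was -0.20 without LKO replicate 1 and -0.58 without WT replicate 1. Proz, the gene of protein Z, a cofactor in the inhibition of factor Xa, lies 4238 bp beyond F10 on the same strand. It was at 38.4, 53.7 and 65.4 FPKM in LKO livers, against 81.3, 73.6 and 77.6 FPKM in WT livers. All LKO libraries lay below all WT libraries for Proz, and it did not pass the test (log2 difference -0.58 ± 0.30 SE, limma adjusted p = 0.625). F9 (ENSMUSG00000031138, chromosome X, 59999464 to 60030759, plus strand), the gene affected in haemophilia B, was at 32.4, 54.7 and 67.9 FPKM in LKO livers, against 46.1, 54.2 and 46.4 FPKM in WT livers. The lowest and the highest value were both in LKO libraries, and the log2 difference was 0.02 ± 0.34 (SE; limma, 95% interval -0.78 to 0.82, adjusted p = 0.993).

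For the cofactor and the cross-linking carrier, the lowest and the highest library were both LKO. F5 (ENSMUSG00000026579, chromosome 1, 164151838 to 164220277, plus strand) encodes factor V. It was at 28.1, 40.4 and 61.4 FPKM in LKO livers, against 40.9, 43.5 and 38.6 FPKM in WT livers. The WT libraries lay inside the LKO range (log2 difference 0.01 ± 0.34 SE, limma 95% interval -0.79 to 0.81, adjusted p = 0.998). The start of F5 overlaps the non-coding gene Gm16548 on the opposite strand, which was at 2.87 to 5.46 FPKM in LKO livers and at 3.62 to 9.18 FPKM in WT livers. The strand setting of the counting is not stated, so reads over the overlap cannot be assigned. F13b (ENSMUSG00000026368, chromosome 1, 139501702 to 139523752, plus strand), the factor XIII B chain, was at 6.99, 32.0 and 69.1 FPKM in LKO livers, against 14.2, 31.4 and 16.0 FPKM in WT livers. It had the widest spread of the 10 genes, with a coefficient of variation of 78.9% over the 6 libraries, against 14.1% to 47.5% for the others. Its log2 difference of 0.38 ± 0.76 (SE; limma, 95% interval -1.39 to 2.15, adjusted p = 0.930) was -0.32 without LKO replicate 3 and 1.24 without LKO replicate 1.

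**Figure D2:**
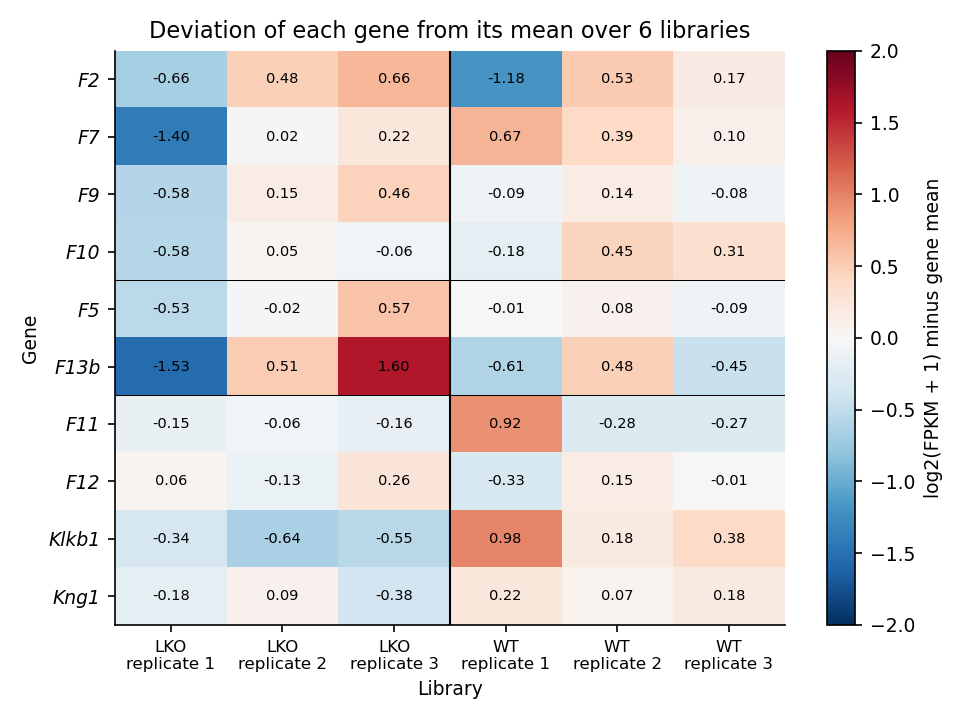
Deviation of log2(FPKM + 1) from each gene's mean over the 6 libraries, with LKO libraries on the left and WT libraries on the right; red is above and blue below the gene's mean. F13b spans -1.53 (LKO replicate 1) to 1.60 (LKO replicate 3), and Klkb1 is below its mean in the 3 LKO libraries. In WT replicate 1, Klkb1 (0.98) and F11 (0.92) are high and F2 (-1.18) is low.

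In the contact system the Klkb1 libraries were apart by genotype, and those of its neighbour F11 overlapped. Klkb1 (ENSMUSG00000109764, chromosome 8, 45266689 to 45294859, minus strand), plasma prekallikrein, was at 37.0, 29.8 and 31.9 FPKM in LKO livers, against 93.8, 53.4 and 61.5 FPKM in WT livers. The 3 LKO libraries lay close together and below all WT libraries, with 2465, 2446 and 3181 reads against 9497, 4932 and 5045 reads. The log2 difference was -1.02 ± 0.31 (SE; limma, 95% interval -1.75 to -0.29, unadjusted p = 0.0124, adjusted p = 0.365), the 395th smallest p of the 11672 genes. It stayed between -1.19 and -0.79 with each library left out in turn. The annotated gene Gm45753 overlaps Klkb1 on the same strand and had 0 to 3 reads per library, so the level of Klkb1 is uncertain to the extent that reads in shared exons were not counted.

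F11 (ENSMUSG00000031645, chromosome 8, 45241174 to 45262031, minus strand) encodes factor XI, which shares its domain order with plasma prekallikrein, and its gene lies 4658 bp from Klkb1. It was at 27.0, 28.8 and 26.8 FPKM in LKO livers, against 57.6, 24.6 and 24.7 FPKM in WT livers. WT replicate 1 was the highest library and the other 5 lay between 24.6 and 28.8 FPKM. The log2 difference was -0.25 ± 0.38 (SE; limma, adjusted p = 0.906) and 0.15 without WT replicate 1. The ratio of F11 to Klkb1 within a library does not depend on how libraries are scaled. It was 0.729, 0.968 and 0.840 in LKO livers, against 0.614, 0.461 and 0.402 in WT livers, so every LKO library lay above every WT library. An exact two-sided permutation test gave p = 0.1, the smallest that 3 against 3 allow (p = 0.15 adjusted over the 3 ratios computed, n = 3 each). The ratio contains the Klkb1 values given above, so it is not a result separate from them. How often ratios of other gene pairs are apart was not computed. Cyp4v3, a fatty acid hydroxylase gene on the other side of Klkb1, was at 75.1, 81.1 and 117 FPKM in LKO livers, against 39.6, 97.0 and 75.5 FPKM in WT livers.

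The promoters of F11 and Klkb1 are shown because the ratio of these neighbours was apart between the genotypes, and that of F9 because it is the one of the 9 promoters searched with a match to the STAT5-type motif. They are the 250 bases before the start, both from RefSeq on GRCm38.p6 (the build also called mm10), at chr8:45262032-45262281 (F11, minus strand), chr8:45294836-45295085 (Klkb1, minus strand) and chrX:59999214-59999463 (F9, plus strand). Capitals mark matches to TGTTTAC (FOXA), TTGCNNAA (C/EBP), GTTAAT (HNF1 core), CAAAGTCCA (HNF4) or TTCNNNGAA (STAT5 type), searched on both strands, none of them overlapping another.
F11: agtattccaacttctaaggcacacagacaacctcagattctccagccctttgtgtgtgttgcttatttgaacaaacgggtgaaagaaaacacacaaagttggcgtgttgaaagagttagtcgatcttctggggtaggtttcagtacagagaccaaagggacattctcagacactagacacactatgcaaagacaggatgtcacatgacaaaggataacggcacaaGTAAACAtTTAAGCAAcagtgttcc
Klkb1: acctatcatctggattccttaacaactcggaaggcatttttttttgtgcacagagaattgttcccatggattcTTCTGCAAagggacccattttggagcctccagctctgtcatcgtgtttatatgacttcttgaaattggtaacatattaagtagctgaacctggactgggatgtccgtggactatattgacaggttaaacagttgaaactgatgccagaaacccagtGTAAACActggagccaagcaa
F9: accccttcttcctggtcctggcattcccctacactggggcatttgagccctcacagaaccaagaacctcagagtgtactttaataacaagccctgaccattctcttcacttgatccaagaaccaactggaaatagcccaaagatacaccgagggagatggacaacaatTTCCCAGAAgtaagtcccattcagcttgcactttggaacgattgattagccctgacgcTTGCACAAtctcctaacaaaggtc
F11 and Klkb1 each held the FOXA letters, as GTAAACA on the shown strand, with the first base 25 and 21 bases before the start (-25 and -21). The RefSeq start of Klkb1 lies inside the gene as GENCODE places it (up to 45294859), and so does its FOXA match. Each also held 1 C/EBP match, TTAAGCAA at -17 in F11 and TTCTGCAA at -177 in Klkb1. F9 held TTGCACAA at -24 and TTCCCAGAA at -82. Promoters of 9 of the 10 genes were in the table, without Kng1. Of these 9, 2 held TGTTTAC, 3 held TTGCNNAA, 1 held GTTAAT (F13b), 1 held TTCNNNGAA and 0 held CAAAGTCCA. Over the 32851 promoter windows of the table the shares were 3.17%, 9.56%, 6.43%, 7.02% and 0.384%, in the same order of motifs. These are matches of letters and not measured binding sites.

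**Figure D3:**
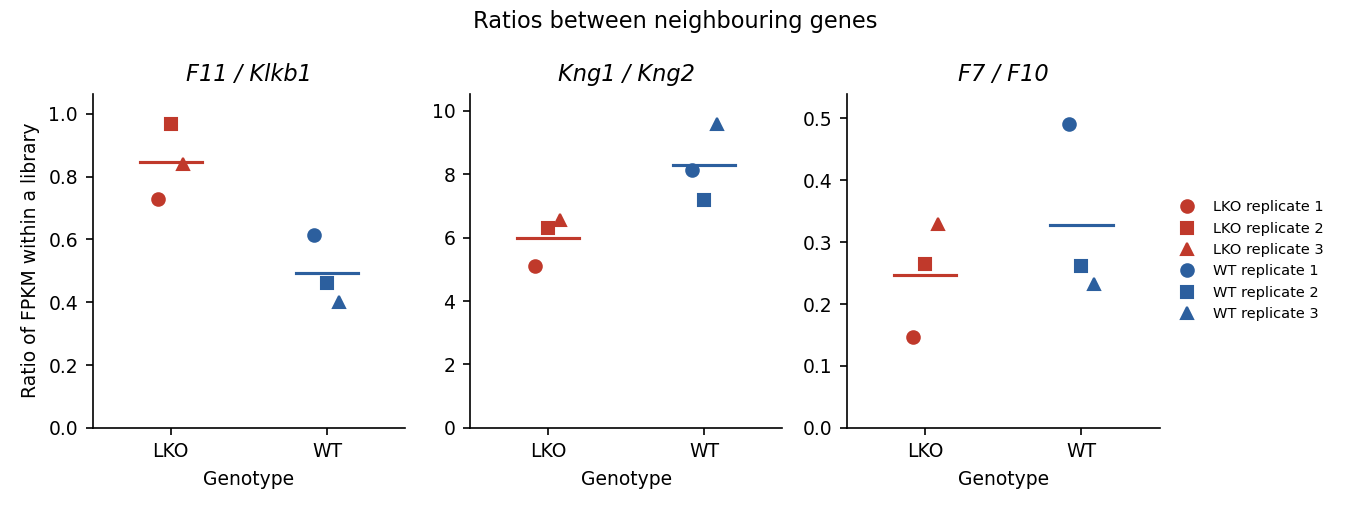
Ratio of FPKM between 2 neighbouring genes within each library (linear axes from 0), LKO left of WT, with a line at each mean. F11 to Klkb1 is higher in the LKO libraries (0.729 to 0.968, against 0.402 to 0.614 in WT), Kng1 to Kng2 is lower (5.10 to 6.55, against 7.19 to 9.59), and F7 to F10 overlaps.

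The other contact factors were steadier. F12 (ENSMUSG00000021492, chromosome 13, 55417958 to 55426793, minus strand), factor XII, was at 231, 202 and 265 FPKM in LKO livers, against 176, 245 and 219 FPKM in WT livers. It had the smallest coefficient of variation of the 10 genes, 14.1%, and its log2 difference was 0.13 ± 0.31 (SE; limma, 95% interval -0.59 to 0.84, adjusted p = 0.947). Kng1 (ENSMUSG00000022875, chromosome 16, 23057865 to 23082078, plus strand), the kininogen gene, was at 721, 866 and 628 FPKM in LKO livers, against 954, 855 and 928 FPKM in WT livers. LKO replicate 2 lay above the lowest WT library, and the log2 difference was -0.32 ± 0.32 (SE; limma, adjusted p = 0.838). Kng2, a second kininogen gene of the mouse 28383 bp away on the opposite strand, was at 141, 137 and 95.8 FPKM in LKO livers, against 117, 119 and 96.8 FPKM in WT livers. The ratio of Kng1 to Kng2 was 5.10, 6.30 and 6.55 in LKO livers, against 8.14, 7.19 and 9.59 in WT livers, and did not overlap (exact two-sided permutation test, p = 0.1, 0.15 adjusted over 3 ratios, n = 3 each). The 2 genes have close sequences and may share reads, so both levels are uncertain to that extent. The third ratio, F7 to F10, was 0.147, 0.265 and 0.328 in LKO livers, against 0.491, 0.261 and 0.233 in WT livers, and overlapped (exact permutation test, p = 0.6, n = 3 each).

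**Figure D4:**
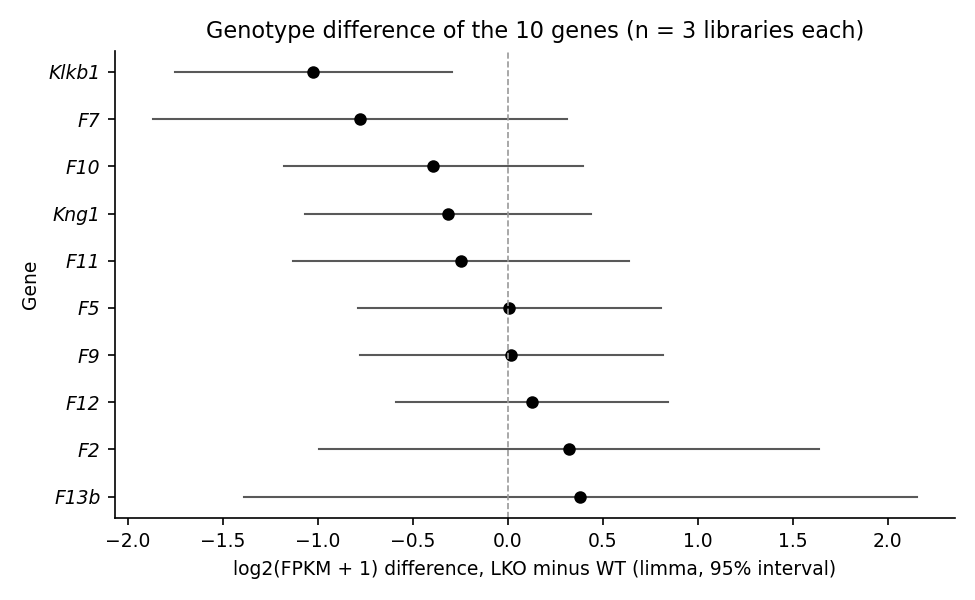
Fitted log2(FPKM + 1) difference, LKO minus WT, of each gene with its 95% interval from limma (n = 3 libraries each), ordered by difference. The interval of Klkb1 (-1.75 to -0.29) is the one that leaves out 0 before adjustment, and the interval of F13b (-1.39 to 2.15) is the widest.

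The libraries numbered 1 weighed differently on the 10 genes. In LKO, replicate 1 held 0.138 times the mean of replicates 2 and 3 for F13b, 0.334 for F7, 0.425 for F2, 0.529 for F9, 0.551 for F5 and 0.670 for F10. The 4 contact genes lay between 0.964 (Kng1) and 1.198 (Klkb1) on the same measure. In WT, replicate 1 held 0.343 times the mean of the other 2 for F2, 0.599 for F13b, 0.677 for F10 and 0.760 for F12. It held 1.34 times that mean for F7, 1.63 for Klkb1 and 2.33 for F11. Without both libraries numbered 1 the log2 differences were -0.87 for Klkb1, 1.04 for F13b and between -0.39 and 0.28 for the other 8, and limma called 0 of the 10. The 10 genes together summed to 1381, 1848 and 1790 FPKM in LKO livers, against 1722, 1984 and 1893 FPKM in WT livers. Without Kng1 they summed to 660, 981 and 1162 FPKM in LKO livers, against 768, 1130 and 965 FPKM in WT livers, and overlapped.

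Over the 6 libraries, the mean deviation of the 10 genes on the log2 scale was -0.59, 0.04 and 0.26 in LKO livers, against 0.04, 0.22 and 0.02 in WT livers. Among 2881 other genes that averaged 10 FPKM or more, the profiles most like it over these 6 libraries were those of Sppl2a (Pearson r = 0.995), Krcc1 (0.986), Dhdh (0.985), Slco1b2 (0.981) and Erg28 (0.980). Slco1b2, an organic anion transporter of hepatocytes, was at 21.4, 87.7 and 206 FPKM in LKO livers, against 81.9, 137 and 103 FPKM in WT livers. For F11 alone the closest were Tff3 (r = 0.979), Foxq1 (0.909) and Rbck1 (0.905). Tff3, a secreted trefoil peptide gene, was at 0, 2.34 and 0 FPKM in LKO livers, against 178, 0.692 and 0 FPKM in WT livers, so this likeness follows WT replicate 1. With 6 libraries and many genes searched, these r are descriptions, and libraries share depth and scaling.

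Among the other clotting genes none passed the test either. With array quality weights, limma called 3 of the 5 other coagulation genes tested and 2 of the 8 anticoagulants tested. Those weights called 1195 of all 11672 genes tested. Of 8 other coagulation genes 5 were tested, with a median log2 difference of 1.13 and 4 above 0. The fibrinogen chain genes led them. Fga was at 1103, 2584 and 1114 FPKM in LKO livers, against 158, 779 and 508 FPKM in WT livers (log2 difference 1.88 ± 0.66 SE, limma adjusted p = 0.440). Fgb (1.13 ± 0.46 SE, limma adjusted p = 0.504) and Fgg (1.31 ± 0.55 SE, limma adjusted p = 0.530) also had every LKO library above every WT library. F8 (0.161 to 0.415 FPKM in LKO, 0.141 to 0.427 FPKM in WT), whose factor VIII is made by endothelial cells, was too low to be tested, as were Vwf and F13a1.

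Of 11 anticoagulant genes 8 were tested, with a median of -0.24 and 6 below 0. Pros1, the gene of protein S, a cofactor of activated protein C, was at 2.85, 1.61 and 2.20 FPKM in LKO livers, against 9.67, 8.29 and 9.65 FPKM in WT livers. Its log2 difference of -1.68 ± 0.24 (SE; limma, 95% interval -2.24 to -1.12, adjusted p = 0.131) did not pass. Serpina10, the protein Z-dependent inhibitor of factor Xa, averaged 84.9 ± 29.5 FPKM in LKO livers and 44.8 ± 5.96 FPKM in WT livers (SD, n = 3 each; limma adjusted p = 0.494). Of 9 fibrinolysis genes 6 were tested, all 6 above 0 with a median of 0.52. Serpinf2, antiplasmin, averaged 328 ± 56.7 FPKM in LKO livers and 224 ± 7.55 FPKM in WT livers (SD, n = 3 each; limma adjusted p = 0.656), and Cpb2, an inhibitor of fibrinolysis, 181 ± 75.6 and 126 ± 54.7 FPKM (limma adjusted p = 0.830).

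The 8 genes of the vitamin K cycle and of factor processing and secretion had a median of 0.13, with 0 called and smallest limma adjusted p-values for Tpst1 (0.770), Mcfd2 (0.777) and Tpst2 (0.805). Ggcx, the gamma-carboxylase that modifies the vitamin K-dependent factors, was at 7.57, 12.98 and 16.5 FPKM in LKO livers, against 9.18, 13.2 and 10.9 FPKM in WT livers. Of 10 genes for thrombin and kinin receptors and kininases 4 were tested, with a median of 0.00. Mme averaged 3.85 ± 2.15 FPKM in LKO livers and 0.987 ± 0.847 FPKM in WT livers, F2r, a thrombin receptor, 2.38 ± 1.01 and 4.46 ± 0.789 FPKM, and Cpn1, a kinin-inactivating carboxypeptidase, 74.4 ± 13.5 and 85.3 ± 13.3 FPKM (SD, n = 3 each), none of them past the limma test. Of 14 hepatocyte transcription factors none passed, and the median was -0.01. Dbp, a circadian factor, was at 7.55, 10.2 and 63.3 FPKM in LKO livers, against 68.1, 101 and 54.2 FPKM in WT livers (limma adjusted p = 0.469). Foxa3 was at 50.9, 81.6 and 31.1 FPKM in LKO livers, against 25.1, 24.5 and 26.9 FPKM in WT livers (limma adjusted p = 0.494). Nr5a2 averaged 9.52 ± 2.56 FPKM in LKO livers and 5.76 ± 0.985 FPKM in WT livers (SD, n = 3 each; limma adjusted p = 0.559). Hnf4a, known to drive clotting factor genes in hepatocytes, was at 144, 190 and 107 FPKM in LKO livers, against 103, 100 and 94.9 FPKM in WT livers (limma adjusted p = 0.695).

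**Figure D5:**
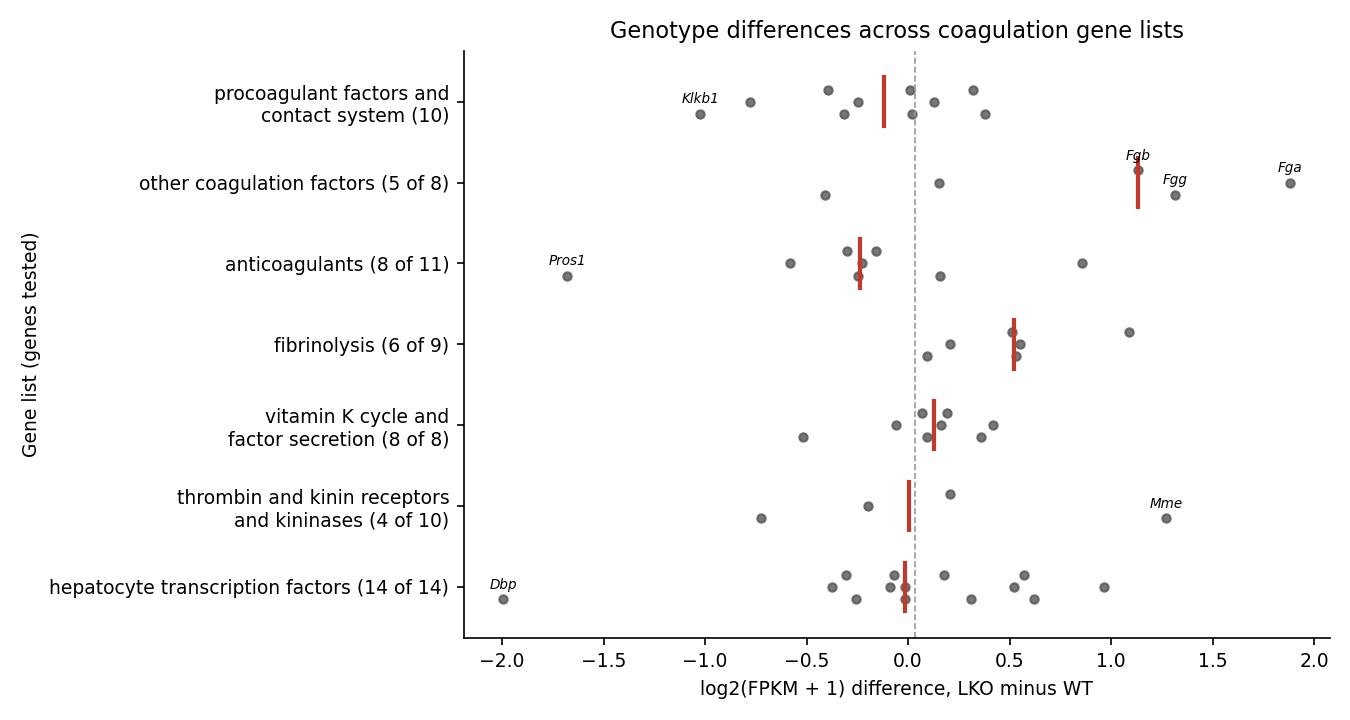
Fitted log2(FPKM + 1) difference, LKO minus WT, of each tested gene in 7 clotting-related lists, with a red bar at the list's median and a dashed line at the median of all genes tested (0.03). The 10 procoagulant and contact genes lie on both sides of 0 (median -0.12), while the 3 fibrinogen chain genes lie above 1 and Pros1 lies at -1.68; none of these passed the test.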

How the data were processed

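Per the labels' protocols, libraries were made with a NEBNext Ultra kit from TRIzol-extracted liver RNA. DESeq2 1.20.0, featureCounts 1.5.0-p3, HISAT2 2.0.5, CASAVA and the build mm10 are listed in the submitters' processing notes, without roles; no source used here states the annotation, strand setting or filters. The authors deposited 1 FPKM table per library. Multiplied by merged exon length (GENCODE vM21), the FPKM of a library were multiples of 1 step (96.3% to 96.6% of values above 0 and under 2000 reads whole within 0.05), which gave the reads; the step totals followed median-of-ratios size factors within 0.995 to 1.00. GENCODE vM21 (mm10) gave symbols and coordinates for 54495 of 54532 identifiers.

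Differences were fitted with limma 3.58.1 (R 4.3.3; trend, robust) on log2(FPKM + 1), which understates changes of low genes, over the 11672 genes averaging 0.5 FPKM or more, genotype as the only term, Benjamini-Hochberg threshold 0.05. All 10 genes passed the filter. At this depth 3 reads on 1 kb are 0.158 to 0.236 FPKM in LKO and 0.156 to 0.192 FPKM in WT, a floor that covers counting error only. Alternatives were another pseudocount, other filters, scalings and weights, the replicate number as a block, voom on reads, and libraries left out.

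Named genes are all 10 members, Arid2, up to 3 genes with the smallest p of each other list, and the genes most like the members (some items are not reported here); Cyp4v3, Proz, Kng2, Ggcx, Hnf4a, F8, Vwf, F13a1, Gm16548, Gm45753, Gp1bb, Alas2, S100a8, Ly6g and Ltf were added after their values were seen. Members and lists were chosen with earlier results of these data known. Neighbours were taken within 50 kb. Figures used Python 3.11.15, pandas 2.3.3 and matplotlib 3.10.9, and exact tests scipy 1.17.1.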

Additional observations from a re-analysis of the deposited data

How the results depend on the processing

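The call on the 10 genes was 0 in 15 of the 16 alternatives run; array quality weights, whose estimation stopped before its tolerance, called 1, Klkb1 (limma adjusted p = 0.0305), and 1195 genes in all (621 higher, 574 lower). Over the 16 alternatives the adjusted p of Klkb1 ranged from 0.0305 to 0.925 and its log2 difference stayed below 0, as did those of F7, F10 and Kng1. The median of the 10 genes was 0.01 with array quality weights, 0.08 without both replicate 1 libraries and -0.27 with quantile normalization. The differences of F2, F5, F9, F11, F12 and F13b changed sign in 1 to 6 of the 16 alternatives. With quantile normalization F5 was at -0.14, F9 at -0.11 and F12 at -0.045. Rescaled without mitochondrial genome genes, F5 was at -0.056 and F9 at -0.046. With voom F5 was at -0.00023. With array quality weights F11 was at 0.10 and F12 at -0.047, and without both replicate 1 libraries F11 was at 0.17 and F12 at -0.0028. With single libraries left out, F9 ranged from -0.21 to 0.32, F5 from -0.27 to 0.28, F13b from -0.32 to 1.24, F2 from -0.19 to 0.73, F11 from -0.45 to 0.15, F10 from -0.58 to -0.20, Kng1 from -0.44 to -0.21 and F12 from -0.0040 to 0.23. F9 was at -0.053 without LKO replicate 2, and at -0.021 and -0.017 when WT replicates 1 and 3 were dropped, and F5 at -0.033 without WT replicate 3. Over all genes, 5 were called, against 1 with no filter, 3 (0 higher) with quantile normalization, 3 (0 higher) when rescaled to the same total, 2 without both replicate 1 libraries and 0 to 17 with single libraries left out. The 0 came from limma without WT replicate 3 (652 genes at an unadjusted p under 0.05) and the 17 without LKO replicate 3. Fitted with a replicate block, limma called 0 genes, 1478 had an unadjusted p under 0.05, and none of the 10 genes was called. Deviations of same-numbered libraries correlated at 0.49, 0.30 and -0.02 for replicates 1 to 3. Differently numbered libraries ran from -0.58 (LKO replicate 1 with WT replicate 2) to 0.45 (LKO replicate 3 with WT replicate 2). The numbers were therefore not taken as pairs. The causes of these shifts were not tested. The median of the other coagulation genes was 0.16 with no filter, since low genes then enter, and that of the fibrinolysis genes 0.06 without WT replicate 1. Pros1 passed with array quality weights alone (limma adjusted p = 0.00398, up to 0.515 elsewhere). The same weights called 3 of the other coagulation genes, 2 anticoagulants (Pros1 among them), 1 receptor or kininase gene and 4 hepatocyte transcription factors; no other alternative called more than 0 in these lists. The 10 genes had at least 225 reads in each library.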
